A study of Mus musculus with 12 samples.

Results

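The 93 genes described here encode subunits of the mitochondrial respiratory chain and of ATP synthase, with the assembly factors that share their names. They were chosen by symbol: every gene of the array whose probe set carries exactly 1 symbol beginning with Nduf, Sdha, Sdhb, Sdhc, Sdhd, Uqcr, Cox4 to Cox8 or Atp5. They are 93 of 19937 genes measured, and 41 belong to complex I, 8 to complex II, 8 to complex III, 19 to complex IV and 17 to complex V. RNA came from bone-marrow cells of mice that had become dendritic cells during 7 days with GM-CSF at 200 ng/ml and were then selected with CD11c beads (stated purity above 95%), and 100 ng of total RNA was used per Affymetrix Mouse Gene 1.0 ST array. There were 4 groups of 3 arrays: wild-type cells untreated, wild-type cells given curdlan for 6 h, IL-2 knockout (IL-2-/-) cells untreated, and IL-2 knockout cells given curdlan for 6 h. Curdlan is a beta-glucan particle recognised by the receptor Dectin-1, and the stated purpose was to study IL-2 signalling in dendritic cells. The strain label B6.129P2-Il2tm1Hor/J stands on all 12 arrays, wild type included, so the genotype was read from the genotype label. The labels do not say that replicates were separate animals or cultures, so a p-value here speaks only of the spread among these samples, which may be technical. Each value is the log2 signal of 1 probe set after RMA, as deposited, and differences are on the log2 scale.

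The respiratory chain sits in the inner mitochondrial membrane. Complex I takes electrons from NADH and complex II from succinate, and both pass them to coenzyme Q. Complex III hands them on to cytochrome c, and complex IV delivers them to oxygen. Complexes I, III and IV pump protons, and ATP synthase (complex V) uses the proton gradient to make ATP. Complex II is also an enzyme of the citric acid cycle. Most subunits are encoded in the nucleus and a few in mitochondrial DNA, so the complexes need genes from both. Dendritic cells stimulated through pattern receptors are known for a shift towards glycolysis.

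The cells carried markers of their label and also of macrophages and monocytes. All 10 dendritic cell markers looked at (such as Itgax, which encodes CD11c, and H2-Ab1) had means above the median of gene means, 6.96, as did all 6 macrophage and monocyte markers. The former ran from 7.21 (Flt3) to 13.28 (Csf2rb) and the latter from 10.3 (Cd14) to 13.02 (Cd68). These lists therefore do not separate dendritic cells from macrophages here. None of the 5 T cell, 4 B cell, 3 NK cell, 5 mast cell or 3 erythroid markers did, and of 8 neutrophil markers S100a8 alone did. Of 5 stromal markers Col1a1 did. Il2, the disrupted gene, read 5.37 to 5.57 on untreated and 6.74 to 7.80 on curdlan-treated wild-type arrays, and 5.63 to 6.04 on the 6 knockout arrays. Array medians over all probe sets lay between 6.59 and 6.64, and arrays correlated at 0.981 to 0.997. For arrays it is their number, 3 per group, that limits the precision. In bulk RNA, fewer cells of a type and less RNA per cell cannot be told apart.

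Curdlan lowered the RNA of many respiratory chain genes by small amounts, in cells of either genotype. With the curdlan effect averaged over both genotypes, 47 of the 93 genes fell (adjusted p under 0.05, limma with Benjamini-Hochberg adjustment over all genes), against a background of 21% of all genes. A single member, Cox8c, rose, against 16.9% of all genes. The median difference over the members was -0.13 (log2, curdlan minus untreated), while that over all genes was 0.03. Single differences ran from -0.71 for Ndufaf4 to 0.22 for Cox6a2, the latter not past the test (adjusted p 0.0577). A typical member had a standard error (SE) of 0.04 in this contrast. The count of 47 lay between 39 and 49 when any 1 array was left out, and between 37 and 43 when an untreated and a curdlan-treated array of the same number were left out together.

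The comparison with all genes has to allow for signal strength, since 66 of the members lay above the upper quartile of gene means, 9.22. Genes above that quartile shifted down as a whole: their median difference in the averaged effect was -0.06, and 35.6% of the 4984 fell. Of the 66 members in that range, 37 fell (56.1%), with a median of -0.13. The upper quartile itself lay at 9.24 to 9.26 on untreated wild-type arrays, 9.15 to 9.23 on curdlan-treated wild-type arrays, 9.20 to 9.26 on untreated knockout arrays and 9.16 to 9.19 on curdlan-treated knockout arrays. The part of this shift in the result was not tested. No test was run of the difference between the members and other bright genes.

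By complex, the share of genes that fell in the averaged effect was highest in complexes II and I. The symbol rule put assembly factors into these complexes only, so the shares compare unlike sets. In complex I, 24 of 41 genes fell (median -0.16), in complex II 7 of 8 (-0.20), in complex III 4 of 8 (-0.13), in complex V 8 of 17 (-0.11), and in complex IV 4 of 19, with 1 higher (-0.06). The complex IV share of 21.1%, which counts its 8 tissue isoforms, was close to the background of 21%. Most members are bright, and bright genes fell more often than all genes, as given above. Splitting each complex by role showed where the falls lay. All 6 measured nuclear core subunits of complex I and all 4 subunits of succinate dehydrogenase fell. By their brightest probe sets, all 3 genes for the c ring of ATP synthase fell too. Other probe sets of Ndufs3, Atp5g1 and Atp5g2 did not pass. Assembly factors had the largest median, -0.22, with 8 of 11 lower. Sdhaf4, counted here and in complex II, has probe sets that disagree in direction. Among the 10 ubiquitous complex IV subunits 4 fell, and among its 8 tissue isoforms 0 fell and 1 rose (2 at an unadjusted p under 0.05, limma). Differences between complexes were not tested, and these counts describe them.

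**Figure D1:**
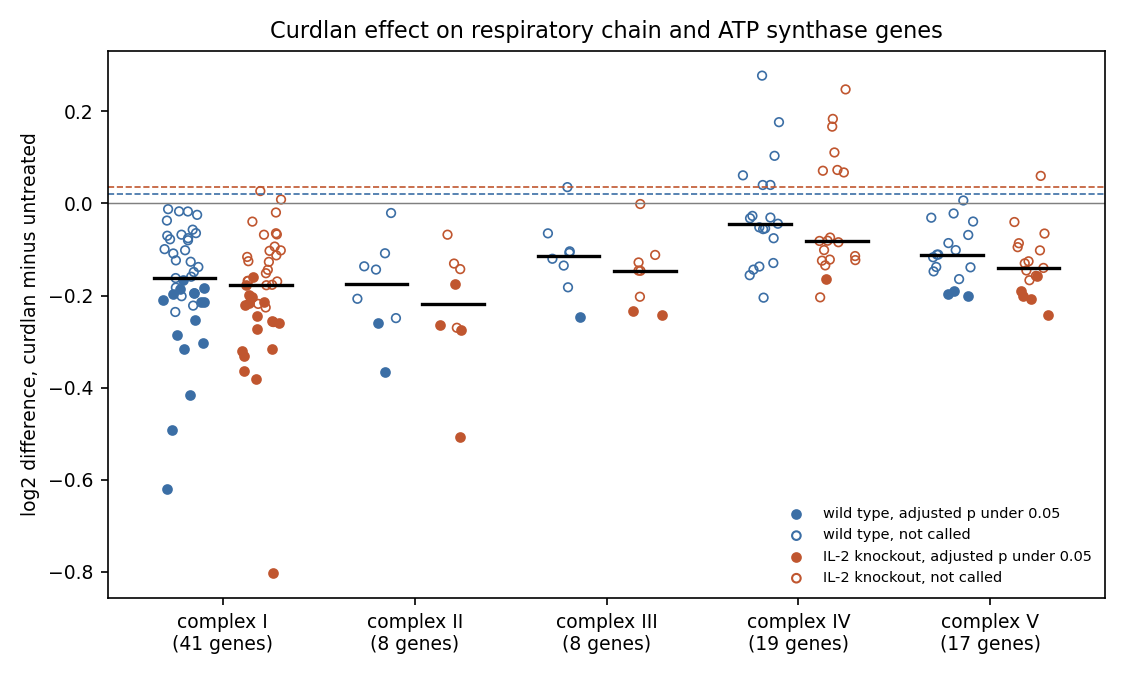
Curdlan effect (log2 difference, curdlan minus untreated) of each of the 93 genes by complex, in wild-type cells (blue) and IL-2 knockout cells (orange). Filled points passed an adjusted p of 0.05, black bars are medians of the genes, and dashed lines are the medians of all 19937 genes in each genotype. Nearly all genes of complexes I, II, III and V lie below 0, the lowest being Ndufaf4, and complex IV is spread on either side of 0.

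Within each genotype fewer genes passed. In wild-type cells 21 of 93 genes fell (background 12.3%) and 0 rose (background 7.27%; 43 members had an unadjusted p under 0.05 in limma, in either direction). In IL-2 knockout cells 29 fell (background 13.2%) and 0 rose (background 9.29%; 51 members had an unadjusted p under 0.05). The median differences were -0.12 in wild-type and -0.14 in knockout cells, against 0.02 and 0.04 over all genes. The 3 curdlan-treated arrays lay below the 3 untreated arrays for 54 members in wild-type cells (background 21%) and for 53 in knockout cells (background 20.8%), and for 40 members this held in both (background 15.6%).

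These shares too were nearer to those of bright genes. In wild-type cells 20.7% of the 4984 genes above the upper quartile fell, against 25.8% of the 66 members in that range and 22.6% of all 93. In knockout cells the values were 22.7%, 34.8% and 31.2%. Treated arrays lay below untreated ones for 36.9% of bright genes and 65.2% of bright members in wild-type cells, for 37.9% and 60.6% in knockout cells, and for 29% and 48.5% in both. The differences between these shares were not tested.

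The counts per genotype moved with the arrays and the model used. With the pairing of same-numbered arrays as a random replicate block they rose to 36 in wild-type and 45 in knockout cells, and the averaged count to 59. Leaving out arrays lowered most of them. The wild-type count of 21 became 10, 13 and 8 without untreated arrays 1, 2 and 3, and 9 and 10 without curdlan-treated arrays 1 and 2. It was 4, 6 and 8 without both arrays numbered 1, 2 or 3. The knockout count of 29 became 9 and 10 without untreated arrays 1 and 3, and 10 and 8 without curdlan-treated arrays 1 and 2. It was 2, 7 and 15 without both arrays numbered 1, 2 or 3. The median over the members moved less, from -0.15 to -0.11 in wild-type cells and from -0.18 to -0.12 in knockout cells over the same omissions.

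The curdlan effects in the 2 genotypes ran together across genes. Across the 93 genes the 2 curdlan effects, which share no arrays, correlated at 0.84 (Pearson) and 0.77 (Spearman). This is a description over genes, which share arrays and processing and are not independent. The sign was the same in both genotypes for 85 genes. Of the 21 genes that fell in wild-type cells and the 29 that fell in knockout cells, 19 were on both lists (background for both, 9.65%; 17.3% of genes above the upper quartile), and 14 of these 19 belong to complex I. Same-numbered arrays of a genotype deviated together, so the change could also be read pair by pair. Members had a median change of -0.16, -0.07 and -0.13 in wild-type pairs 1 to 3 and of -0.17, -0.14 and -0.13 in knockout pairs 1 to 3. For 60 of the 93 genes the curdlan-treated array was below its untreated partner in all 6 pairs (background 23.6%; 43.2% of genes above the upper quartile), and for 1 gene it was above in all 6.

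**Figure D2:**
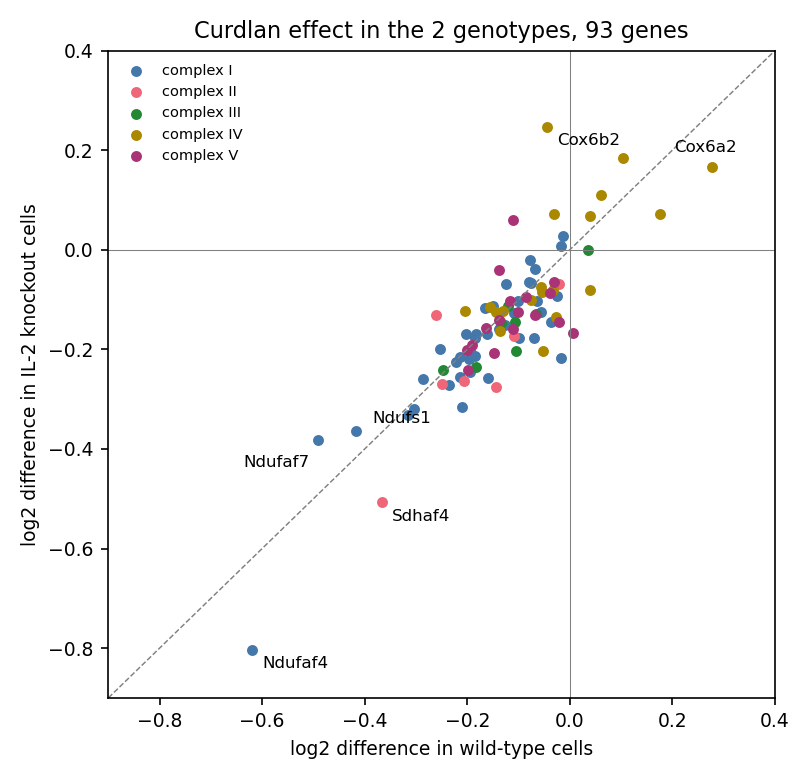
Curdlan effect of the 93 genes in wild-type cells (horizontal axis) against IL-2 knockout cells (vertical axis), both as log2 differences, coloured by complex. The dashed line marks equal effects. Most points lie below and left of 0, near the line (Pearson 0.84), with Ndufaf4 lowest at -0.62 and -0.80, and the points above 0 are mostly complex IV isoforms.

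**Figure D3:**
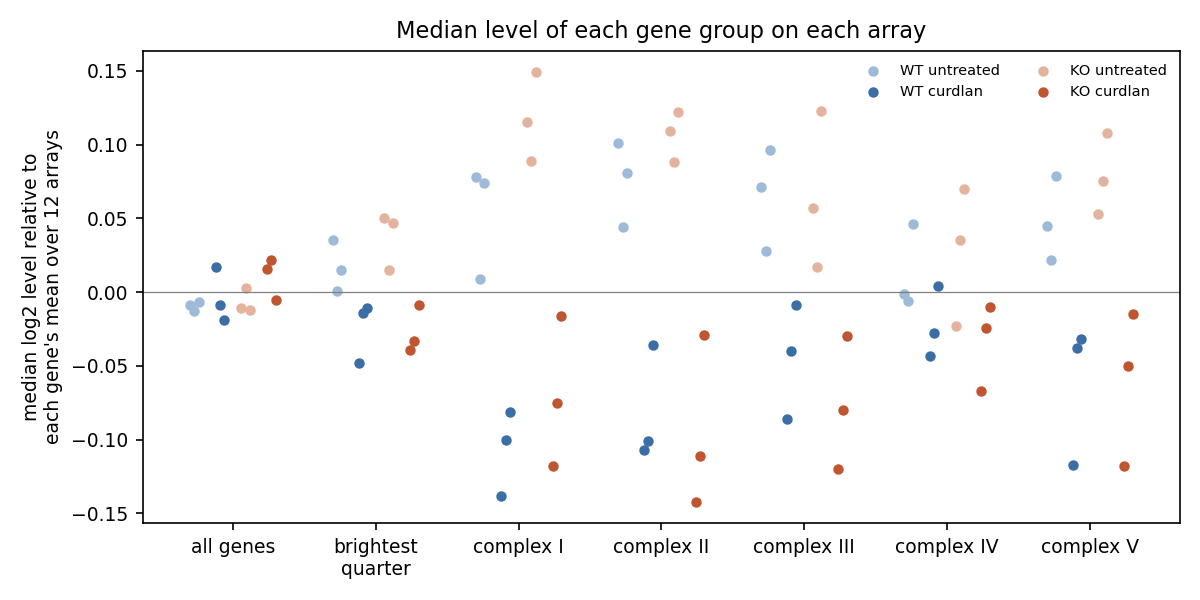
Median log2 level of each gene group on each of the 12 arrays, relative to each gene's own mean over the 12 arrays. For complexes I, II, III and V every untreated array lies above every curdlan-treated array of both genotypes. For complex IV, which includes the tissue isoforms, the groups overlap, and the medians of all genes stay between -0.02 and 0.02.

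The promoters of members are shown because many of the genes moved together, and because respiratory chain genes are known as targets of the transcription factors NRF1, GABP (an ETS factor) and YY1. RefSeq promoter windows of build GRCm38.p6 (250 bases before to 50 after a start) were at hand for 77 of the 93 genes, in 82 windows. The NRF1 motif (the letters GCGC, any base, T and again GCGC) on either strand was found in 25.6% of member windows and in 4.6% of 32851 windows of all genes. The letters CCGGAAG (ETS) were in 25.6% against 8.86%, and AAGATGGCG (YY1) in 8.54% against 1.4%. At least 1 of the 3 was in 51.2% of member windows against 13.6% of all, and no matches of different motifs overlapped in member windows. Below are the 250 bases before the start of 6 genes that fell in the averaged effect. They were chosen to show 1 or more from each complex and, in Ndufb8, a gene with none of the 3 motifs. Atp5g2 fell by its brightest probe set, and its others did not pass (0.06 and -0.15). Probe set positions were not at hand, so whether the brightest one lies at the locus shown is not known. Capitals mark the matches, on the strand of the gene from 5′ to 3′.
Ndufaf4, chr4:24897833-24898082, plus strand: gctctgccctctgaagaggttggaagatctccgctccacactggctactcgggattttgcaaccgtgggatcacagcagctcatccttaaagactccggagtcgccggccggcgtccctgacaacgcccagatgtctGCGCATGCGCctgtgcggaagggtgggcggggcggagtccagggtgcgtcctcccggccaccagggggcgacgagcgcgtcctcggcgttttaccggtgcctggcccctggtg
Ndufb8, chr19:44555443-44555692, minus strand: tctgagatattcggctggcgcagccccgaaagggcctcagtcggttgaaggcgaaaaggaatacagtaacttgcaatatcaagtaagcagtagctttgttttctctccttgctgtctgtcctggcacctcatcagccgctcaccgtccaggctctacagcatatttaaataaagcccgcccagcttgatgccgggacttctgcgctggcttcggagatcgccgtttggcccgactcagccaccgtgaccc
Sdhd, chr9:50603850-50604099, minus strand: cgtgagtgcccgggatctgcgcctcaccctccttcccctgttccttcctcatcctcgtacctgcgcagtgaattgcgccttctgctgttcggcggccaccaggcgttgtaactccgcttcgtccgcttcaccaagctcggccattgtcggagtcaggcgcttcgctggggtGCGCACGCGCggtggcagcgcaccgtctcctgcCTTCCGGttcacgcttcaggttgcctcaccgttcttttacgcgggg
Uqcr11, chr10:80406822-80407071, minus strand: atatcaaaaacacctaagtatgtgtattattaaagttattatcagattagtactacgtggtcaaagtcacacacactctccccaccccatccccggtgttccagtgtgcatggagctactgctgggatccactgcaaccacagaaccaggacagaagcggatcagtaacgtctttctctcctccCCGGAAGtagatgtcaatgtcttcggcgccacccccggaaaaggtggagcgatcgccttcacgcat
Cox6a1, chr5:115348959-115349208, minus strand: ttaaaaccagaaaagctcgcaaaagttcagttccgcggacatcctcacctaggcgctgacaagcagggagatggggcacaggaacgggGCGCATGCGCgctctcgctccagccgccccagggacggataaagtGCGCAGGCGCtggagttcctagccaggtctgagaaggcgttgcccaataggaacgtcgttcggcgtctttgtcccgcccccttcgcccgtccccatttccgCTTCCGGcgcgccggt
Atp5g2, chr15:102671048-102671297, minus strand: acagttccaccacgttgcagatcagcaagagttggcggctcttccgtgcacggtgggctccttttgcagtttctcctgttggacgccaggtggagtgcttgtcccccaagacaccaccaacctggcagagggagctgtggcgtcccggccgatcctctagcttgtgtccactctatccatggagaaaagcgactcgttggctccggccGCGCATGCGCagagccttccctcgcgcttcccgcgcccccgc

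In these windows Ndufaf4 and Atp5g2 hold 1 NRF1 match each, with the last base 104 and 33 bases before the start. Sdhd holds an NRF1 and an ETS match, Cox6a1 2 NRF1 matches and an ETS match, and Uqcr11 an ETS match. Members with an NRF1 match had a median averaged effect of -0.19, and 15 of 20 fell. Members without one had a median of -0.12, and 24 of 57 fell. For ETS the medians were -0.13 with and -0.14 without a match (10 of 21 and 29 of 56 lower), and for YY1 they were -0.11 and -0.14 (2 of 7 and 37 of 70 lower). These are descriptions without a test, and a match is not evidence of binding. The gene for NRF1 itself (Nrf1) differed by -0.01 and that for the ETS subunit Gabpa by -0.04 in the averaged effect (adjusted p 0.885 and 0.471, limma). Other regulators of mitochondrial transcription, given below, did fall. The RNA of a factor does not measure its activity, and the part of these factors in the falls was not tested.

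Among complex I genes, the assembly factor Ndufaf4 changed most. Ndufaf4 helps to build the early part of complex I and lies on chromosome 4 between 24898083 and 24905001 (GRCm38.p6). Untreated wild-type arrays read 8.64, 8.31 and 8.31, and curdlan-treated ones 7.82, 7.82 and 7.76. Untreated knockout arrays read 8.62, 8.47 and 8.56, and curdlan-treated ones 7.69, 7.58 and 7.98. Every treated array lay below every untreated array. Ndufaf4 fell by 0.62 ± 0.11 in wild-type cells (SE, adjusted p 0.00247). In knockout cells it fell by 0.80 ± 0.11 (adjusted p 0.000633), and in the averaged effect Ndufaf4 fell by 38.9%. The call held in each genotype under all 17 alternative settings. Of the named members' calls within a genotype, 4 of 12 in wild-type and 1 of 19 in knockout cells held under all 17, and 6 and 14 were lost in 5 or more.

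Ndufaf7, a methyltransferase needed for complex I assembly, also fell in each genotype. It read 7.45, 7.39 and 7.40 in untreated wild-type cells and 6.83, 6.94 and 6.99 with curdlan. Knockout cells gave 7.58, 7.19 and 7.35 untreated and 7.00, 6.98 and 7.00 with curdlan. The groups did not overlap in either genotype, and the knockout untreated arrays were the most spread. The differences were -0.49 ± 0.08 (adjusted p 0.00223) and -0.38 ± 0.08 (SE, adjusted p 0.00913), the second lost without both knockout arrays numbered 1 (adjusted p 0.0686). Ndufaf6 read 6.57, 6.58 and 6.51 untreated against 6.04, 6.40 and 6.31 with curdlan in wild-type cells, and it fell by 0.30 and 0.32 in the 2 genotypes. Ndufaf2 and Ndufaf5 fell in the averaged effect (-0.22 and -0.21), and Ndufaf1 (-0.14, adjusted p 0.0511) and Ndufaf3 (-0.0043) did not pass.

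The 6 measured core subunits of complex I, which carry electrons from NADH to coenzyme Q, all fell in the averaged effect, by 0.13 to 0.39. Ndufs1, the largest iron-sulphur subunit, read 9.84, 9.92 and 9.83 in untreated and 9.24, 9.50 and 9.60 in treated wild-type cells. In knockout cells it read 9.95, 9.83 and 10.004 untreated and 9.50, 9.56 and 9.63 treated. No treated array reached an untreated one. Ndufs1 fell by 0.42 ± 0.08 (adjusted p 0.0057) and by 0.36 ± 0.08 (SE, adjusted p 0.0119), the second lost without both knockout arrays numbered 1 (adjusted p 0.126). Ndufs7, which holds the last iron-sulphur cluster before coenzyme Q, fell by 0.25 in wild-type and 0.20 in knockout cells (calls lost in 2 and 6 of 17 alternatives). Ndufv1, which binds NADH and FMN, fell by 0.20 and 0.22. Ndufv2 (-0.15), Ndufs3 (-0.18) and Ndufs8 (-0.13) fell in the averaged effect, and the call of Ndufs8 (adjusted p 0.0462) was lost in 15 of 25 alternatives.

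Accessory subunits of complex I stabilise the enzyme around this core. Those of the Q module fell in 3 of 4 cases, led by the LYR protein Ndufa6. Its arrays read 9.60, 9.27 and 9.35 (wild type untreated), 9.08, 9.002 and 9.18 (wild type treated), 9.59, 9.48 and 9.54 (knockout untreated) and 9.16, 9.27 and 9.19 (knockout treated). The groups did not overlap within either genotype, and Ndufa6 fell by 20.1% in the averaged effect. In the membrane arm 9 of 19 fell, with Ndufb8 at -0.27, Ndufb5 at -0.26 and Ndufb10 at -0.25 the furthest from 0. Ndufab1, the mitochondrial acyl carrier protein, fell by 0.20, and its second probe set fell by 0.32. In the N module, which holds the NADH site, 1 of 5 accessory subunits fell (Ndufa2, -0.12, adjusted p 0.04999), and the other 4 lay between -0.06 and -0.12. Ndufb11 did not pass (-0.14, adjusted p 0.0606), while its second probe set did (-0.15).

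All 4 subunits of complex II fell in the averaged effect. The iron-sulphur subunit Sdhb read 10.87, 10.76 and 10.81 in untreated and 10.55, 10.49 and 10.62 in treated wild-type cells, and 10.87, 10.90 and 10.91 in untreated and 10.76, 10.76 and 10.77 in treated knockout cells. Treated arrays lay below untreated ones in either genotype, and the knockout groups were the tighter. Sdhb fell by 0.26 ± 0.05 in wild-type cells (SE, adjusted p 0.00427), a call kept in all 17 alternatives. In knockout cells the difference was -0.13 (adjusted p 0.0816), and the interaction did not pass. The averaged falls of the flavoprotein subunit Sdha and of the membrane anchors Sdhc and Sdhd were 0.14, 0.14 and 0.23, each with no overlap between treated and untreated arrays in either genotype.

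The complex II assembly factors fell in 3 of 4 cases. Sdhaf4, which delivers the flavinated Sdha to Sdhb, read 7.61, 7.43 and 7.34 untreated and 7.05, 7.03 and 7.20 treated in wild-type cells, and 7.83, 7.55 and 7.60 against 7.33, 7.04 and 7.07 in knockout cells. This probe set fell by 0.37 and 0.51 in the 2 genotypes (adjusted p 0.0265 and 0.00605), calls lost in 7 and 1 of 17 alternatives. The second, dimmer probe set named Sdhaf4 (mean 5.97) rose by 0.23 in the averaged effect (adjusted p 0.00382), so the 2 probe sets disagree and the direction of this gene is uncertain. Sdhaf3 fell by 0.26 and Sdhaf1 by 0.21 in the averaged effect, and Sdhaf2 did not pass (-0.04).

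In complex III, Uqcr11, a small accessory subunit, fell most. It read 11.30, 11.32 and 11.40 untreated and 11.01, 11.06 and 11.21 treated in wild-type cells, and 11.59, 11.45 and 11.47 against 11.31, 11.23 and 11.25 in knockout cells. The groups did not overlap within either genotype, and Uqcr11 fell by 0.25 ± 0.06 and 0.24 ± 0.06 (SE, adjusted p 0.0203 and 0.0223), each call lost in 5 of 17 alternatives. The core proteins Uqcrc1 and Uqcrc2 fell by 0.21 and 0.12 in the averaged effect, the second lost in 10 of 25 alternatives. Uqcrfs1, the Rieske protein that passes electrons to cytochrome c1, gave 0.02 (adjusted p 0.809), with treated and untreated arrays overlapping in both genotypes. Uqcrb did not pass (-0.14, adjusted p 0.0612), while 1 of its other 2 probe sets fell (-0.19).

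**Figure D4:**
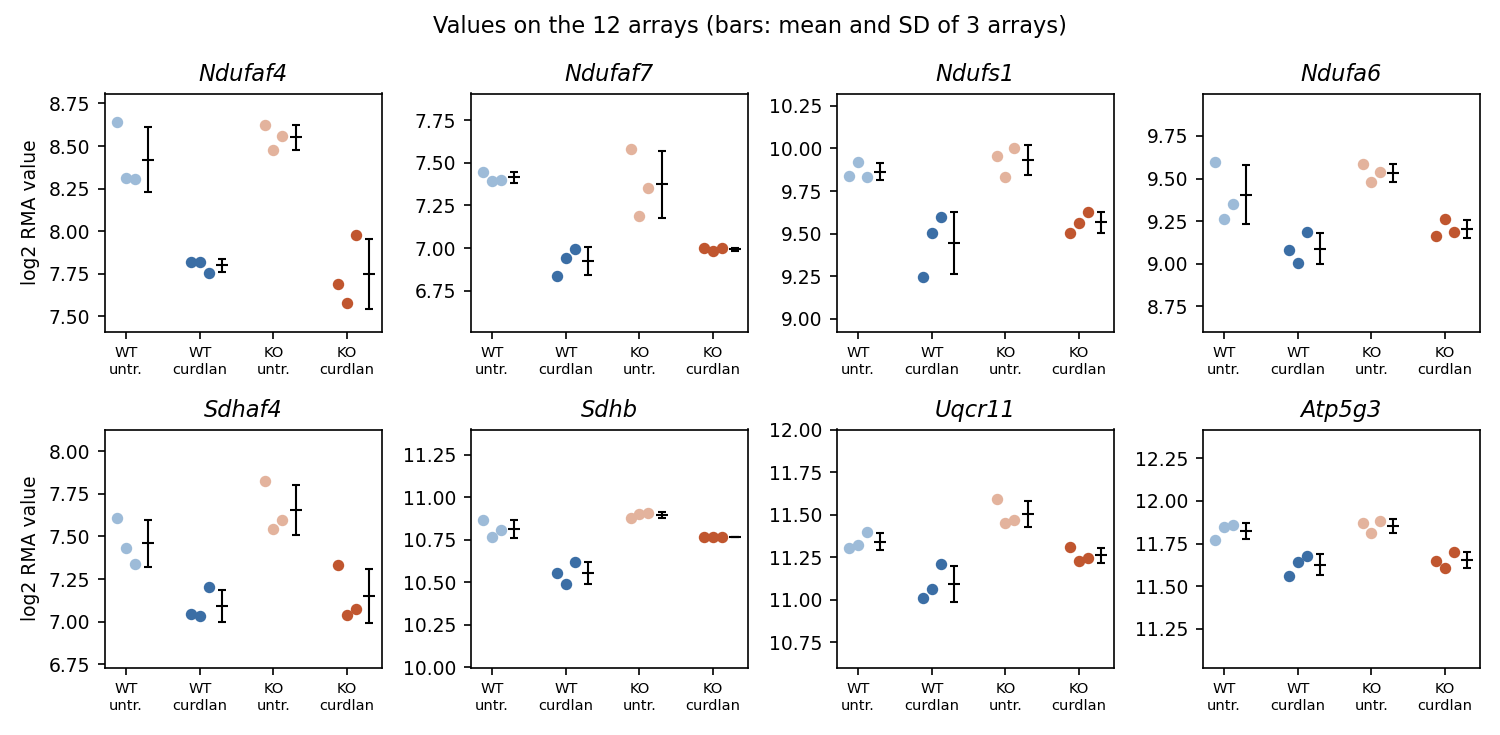
Log2 RMA values of 8 genes on the 12 arrays, 3 per group, with the mean and SD of each group beside the points; WT is wild type, KO is IL-2 knockout and untr. is untreated. Each panel spans the same height in log2 units around the middle of its own range. In each genotype the curdlan-treated arrays lie below the untreated arrays for all 8 genes.

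Complex IV had the lowest share of genes that fell, with its tissue isoforms counted in. Of its ubiquitous subunits, the forms made in most tissues, Cox6a1 (-0.15), Cox5b (-0.13), Cox6b1 (-0.13) and Cox4i1 (-0.13) fell in the averaged effect. The call of Cox6b1 was lost in 12 of 25 alternatives. Cox6a1 read 11.43, 11.45 and 11.49 untreated and 11.26, 11.30 and 11.39 treated in wild-type cells, and 11.46, 11.49 and 11.51 against 11.26, 11.34 and 11.38 in knockout cells. Its groups did not overlap within a genotype. Cox5a, Cox6c, Cox7a2, Cox7b, Cox8a and Ndufa4 lay between -0.16 and -0.06 and did not pass. Cox7a2l, which links complexes III and IV in supercomplexes, gave -0.13 (adjusted p 0.151), and its second probe set fell (-0.26).

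The tissue isoforms of complex IV are known from heart and muscle (Cox6a2, Cox7a1, Cox8b), testis (Cox6b2, Cox7b2, Cox8c), lung (Cox4i2) or hypoxic cells (Ndufa4l2). Their means over the 12 arrays ran from 4.26 (Cox7b2) to 7.64 (Cox7a1). Some assembly factors that fell had means in the same range, such as Ndufaf6 (6.44) and Ndufaf7 (7.18). Cox7b2, at 4.17 to 4.40, was the single member below the lower quartile of gene means, 5.38. The averaged differences of the 8 isoforms lay between -0.02 and 0.22. Cox8c read 6.66, 6.73 and 6.59 untreated and 6.81, 6.72 and 6.76 treated in wild-type cells, and 6.63, 6.72 and 6.75 against 6.96, 6.92 and 6.78 in knockout cells. The wild-type groups overlap, all of these values lie at or below the median of gene means, and the rise of 0.14 ± 0.04 (SE, adjusted p 0.0254) was lost in 11 of 25 alternatives. Cox6a2 (0.22), Cox8b (0.12), Cox6b2 (0.10) and Cox4i2 (0.09) did not pass.

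In ATP synthase, 3 genes encode the same mature c subunit, whose ring turns as protons pass. By their brightest probe sets, all 3 fell in the averaged effect. Atp5g3 read 11.77, 11.85 and 11.86 untreated and 11.56, 11.64 and 11.68 treated in wild-type cells, and 11.87, 11.81 and 11.88 against 11.65, 11.61 and 11.70 in knockout cells. It fell by 0.20 ± 0.05 in each genotype (SE, adjusted p 0.021 and 0.0206), with no overlap between treated and untreated arrays, and fell by 13.0% in the averaged effect. The Atp5g3 call was lost in 7 of 17 alternatives in wild-type and 8 of 17 in knockout cells, and held in all 25 for the averaged effect. Atp5g2 fell by 0.19 and Atp5g1 by 0.13 in the averaged effect, and none of their other probe sets passed (3 in all, from -0.15 to 0.06). Of the peripheral stalk, which holds the enzyme head still, Atp5pb (subunit b) fell by 0.20 and 0.24 in the 2 genotypes (adjusted p 0.0469 and 0.0198, limma) and Atp5o by 0.18 in the averaged effect. The Atp5pb call was lost in 11 of 17 alternatives in wild-type and 6 of 17 in knockout cells, and held in all 25 for the averaged effect. The second Atp5pb probe set did not pass in wild-type or knockout cells (-0.125 and -0.101, limma adjusted p 0.127 and 0.1785). It fell in the averaged effect (-0.113).

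In the catalytic F1 head of ATP synthase, Atp5a1 (alpha), Atp5c1 (gamma) and Atp5d (delta) fell by 0.14, 0.16 and 0.10 in the averaged effect. Atp5b, the catalytic beta subunit, gave -0.09 ± 0.04 (SE, adjusted p 0.072) and did not pass. It read 12.99, 12.96 and 13.02 untreated and 12.84, 12.92 and 12.95 treated in wild-type cells, and 13.02, 12.98 and 13.04 against 12.86, 12.91 and 12.98 in knockout cells. Among the 5 other membrane subunits 0 fell (3 at an unadjusted p under 0.05, limma), with differences from -0.11 to -0.03. Atp5l, subunit g, had 5 probe sets: the brightest gave -0.03 and did not pass, 2 others fell by 0.22 and 0.27, and the last 2 gave 0.04 and 0.05.

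Multiple probe sets were available for 18 of the 93 genes, and for 8 of these the probe sets differed in their call in the averaged effect. These are Atp5g1, Atp5g2, Atp5l, Cox7a2l, Ndufb11, Ndufs3, Sdhaf4 and Uqcrb, and their calls are uncertain. Of Ndufs3 the second probe set gave -0.01. Within a genotype the calls differed for 5 genes in wild-type and 6 in knockout cells. Among the 19 genes that fell in both genotypes, these include Atp5g2, Atp5pb, Ndufab1 and Sdhaf4. For the 75 genes with 1 probe set no such check could be made. The gene table holds pseudogenes named after 9 members (the symbol followed by -ps), whose transcripts the probes may not separate. Pseudogenes under other names were not counted, so more members may be affected. Probe set positions were not at hand, so a brightest probe set may lie outside the gene it is named for.

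The genotype itself left these genes without a detectable difference. In untreated cells 0 of 93 genes differed between knockout and wild type (background 1.19% lower and 0.231% higher; 5 members had an unadjusted p under 0.05, limma), and the median difference was 0.04 (knockout minus wild type). With curdlan, 0 of 93 differed (background 0.517% lower and 0.105% higher; 6 members had an unadjusted p under 0.05) with a median of 0.02. The lowest adjusted p among members was 0.345 and 0.0922. These tests do not show equality, and the 95% intervals bound what could be missed: they reached 0.14 to either side at the median, and they lay within 0.5 of 0 for 91 and 92 of the 93 genes. The genes with the largest differences were Cox7a1 (-0.24 untreated, -0.36 with curdlan), Cox6a2 (0.24 untreated) and Sdhaf1 (-0.28 with curdlan), and none passed.

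Cox7a1, the heart and muscle isoform, read 7.64, 7.67 and 8.003 in untreated and 7.64, 7.94 and 7.85 in treated wild-type cells. Knockout cells read 7.43, 7.40 and 7.76 untreated and 7.37, 7.35 and 7.62 treated. The knockout arrays lay below the wild-type arrays with curdlan and overlapped them without it (adjusted p 0.27 and 0.588). Sdhaf1 read 8.60, 8.64 and 8.52 in treated wild-type cells and 8.29, 8.20 and 8.41 in treated knockout cells, with no overlap (adjusted p 0.0922).

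The interaction asks whether curdlan acted differently in the 2 genotypes. It passed for 0 of 93 members and for 0% of all genes (limma, with 1 member at an unadjusted p under 0.05). The disrupted gene Il2 did not pass either, at -1.89 (adjusted p 0.357, limma), so 0 calls do not show equal responses. The median over the members was -0.02 (knockout effect minus wild-type effect). It ran from -0.043 to 0.00603 with 1 array left out and so changed sign. The 95% interval reached 0.19 to either side at the median, and 90 of 93 intervals lay within 0.5 of 0. The largest values among members were 0.29 for Cox6b2 and -0.20 for Ndufs6, a zinc-binding subunit of the complex I N module. Ndufs6 read 9.03, 8.87 and 8.85 untreated and 8.92, 8.80 and 8.97 treated in wild-type cells, and 9.07, 8.996 and 9.22 against 8.92, 8.87 and 8.85 in knockout cells. A gene called in 1 genotype and not in the other, as Sdhb was, is therefore not shown to differ between them.

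Among the other genes that build and supply the respiratory chain, several groups fell together in the averaged effect. Of 77 mitochondrial ribosomal proteins, which translate the subunits encoded in mitochondrial DNA, 51 fell and 3 rose (median -0.21), with Mrpl42 at -0.52 and Mrps27 at -0.50. Of 23 genes of pyruvate dehydrogenase and the citric acid cycle 15 fell and 0 rose (-0.21), with Idh3a, a subunit of isocitrate dehydrogenase, at -0.68 and the kinase Pdk1 at -0.64. Of 23 import genes 15 fell and 0 rose (-0.22), among them the small chaperones Timm9 (-0.73) and Timm8a1 (-0.70). The members' own share was 47 of 93 and that of all genes 21%. That of genes above the upper quartile of gene means, given earlier, lay between them. Differences between these shares were not tested.

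Factors that build single complexes fell in more cases than they rose. Of all genes, 21% fell and 16.9% rose in the averaged effect, and differences from these shares were not tested. Of 10 complex I assembly factors outside the Nduf names 8 fell, led by Ecsit (-0.43) and Tmem126b (-0.34), and of 4 genes for ATP synthase assembly and inhibition 3 fell, including Atpaf1 (-0.35) and Atpaf2 (-0.26). Of 28 genes for complex III and IV assembly and cytochrome c 15 fell and 6 rose. Bcs1l, which inserts the Rieske protein into complex III, fell by 0.67, Lrpprc, which stabilises mitochondrial messenger RNA, by 0.45, and Uqcc1, needed to make cytochrome b, by 0.41. The 6 that rose (background for rises, 16.9%) were Sco1 (0.31) and Cox17 (0.20), which deliver copper to complex IV, Cox18 (0.30), Cox15 (0.29), an enzyme of heme A synthesis, Coa5 (0.27) and Slirp (0.25), the partner of Lrpprc. Of 20 regulators of mitochondrial transcription and biogenesis 10 fell and 0 rose, with the transcription factor Tfb2m at -0.73 and the DNA polymerase subunit Polg2 at -0.57.

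Other routes of electrons to coenzyme Q were mixed. Of 20 genes for coenzyme Q synthesis and other donors 7 fell and 1 rose (-0.06): Coq5, a methyltransferase of coenzyme Q synthesis, fell by 0.41, and Gpd2, the mitochondrial glycerol-3-phosphate dehydrogenase, rose by 0.51. Gpd2 rose in each genotype, by 0.43 and 0.58 (adjusted p 0.00323 and 0.000641). Of 9 carriers of ATP, ADP and phosphate 4 fell, with the ADP/ATP carrier Slc25a4 at -0.22 and the outer membrane channel Vdac1 at -0.17. Of the subunits encoded in mitochondrial DNA only mt-Co2 and mt-Nd3 had usable probe sets, and neither passed (-0.10 and -0.07, limma adjusted p 0.0852 and 0.0946; 2 of 2 at an unadjusted p under 0.05).

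**Figure D5:**
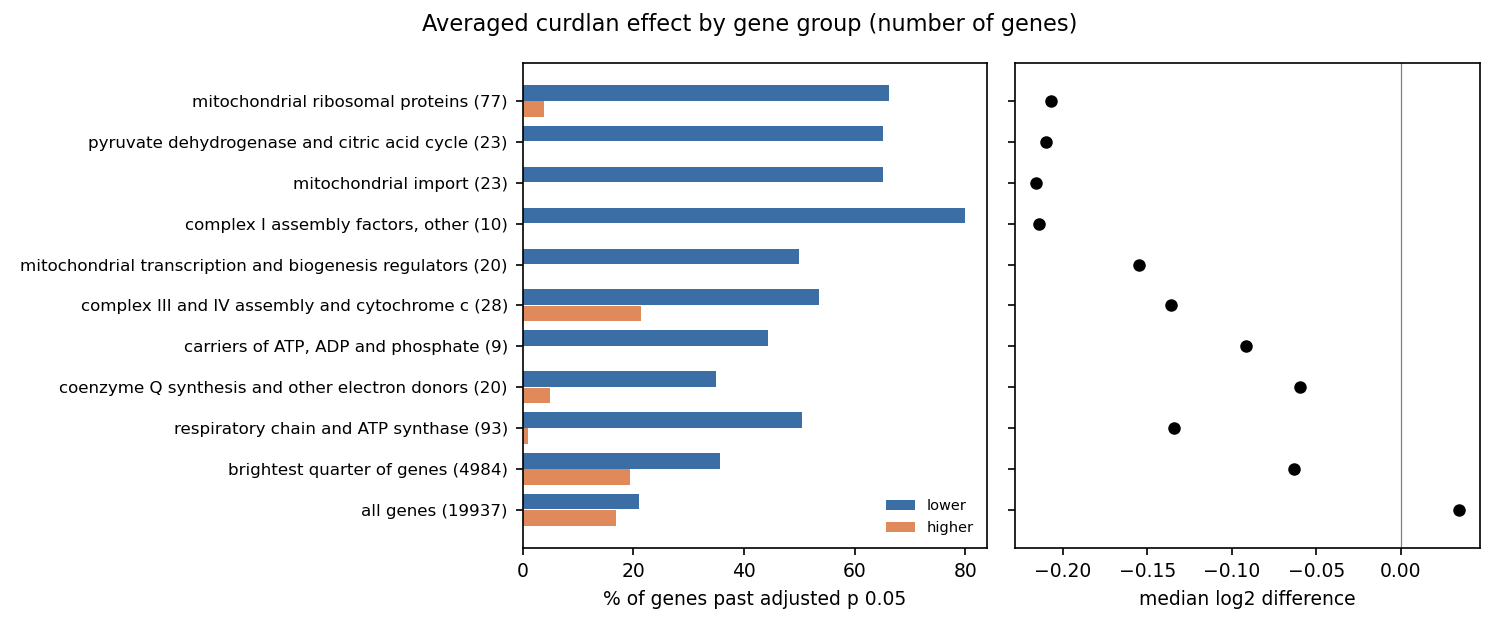
Left, percent of the genes in each group that fell (blue) or rose (orange) with curdlan at an adjusted p of 0.05, averaged over both genotypes. Right, median log2 difference of the same genes; the number of genes stands in brackets. The respiratory chain and ATP synthase genes (50.5% lower, median -0.13) lie between all genes (21%, 0.03) and the mitochondrial ribosomal proteins (66.2%, -0.21).

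Some cell type markers moved with curdlan as well. The mean of the 10 dendritic cell markers was 11.91 to 11.98 on untreated and 11.70 to 11.73 on treated wild-type arrays, and 11.58 to 11.69 and 11.47 to 11.59 on knockout arrays. A single gene carried this: the lectin gene Cd209a fell by 2.87 in wild-type cells and fell by 1.84 in knockout cells. Without Cd209a, a choice made after seeing the data, the mean of the other 9 was 12.01 to 12.04 on untreated and 12.07 to 12.12 on treated wild-type arrays, and 11.89 to 12.06 and 12.02 to 12.10 on knockout arrays. Of these 9, Flt3 rose in the averaged effect (0.75) and 8 did not pass, with differences from -0.08 to 0.21.

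The mean of the 6 macrophage and monocyte markers was 11.59 to 11.72 on untreated and 11.78 to 11.93 on treated wild-type arrays, and 11.72 to 11.88 and 11.90 to 11.95 on knockout arrays. In the averaged effect 3 of the 6 rose (Fcgr1, Cd14 and Mertk) and 2 fell (Adgre1 and Csf1r). The mean of the 5 stromal markers was 6.22 to 6.25 on untreated and 6.30 to 6.54 on treated wild-type arrays, and 6.19 to 6.39 and 6.34 to 6.47 on knockout arrays, and 3 of the 5 rose in the averaged effect (Col1a1, Col1a2 and Dcn). The mean of the 8 neutrophil markers was 5.71 to 5.85 and 5.80 to 6.00 on wild-type arrays and 5.71 to 5.82 and 5.78 to 6.07 on knockout arrays, and 0 passed in the averaged effect (3 at an unadjusted p under 0.05, limma). The list means of these and of T, B, NK, mast and erythroid cell markers stayed below the median of gene means on every array. The part of the marker shifts in the falls of the respiratory chain genes was not tested.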

How the data were processed

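The 12 samples each gave 1 Affymetrix Mouse Gene 1.0 ST array, 3 per group. The authors deposited log2 values made with RMA, per the submitters' processing notes; its version, and the set of arrays normalised at once, were not given in the sources used here. RMA equalises the distributions of arrays, so a change shared by most genes would not show. Of 34760 probe sets, 21640 carried exactly 1 symbol, 1321 several and 11799 were not in the annotation table; the first were kept, with the brightest probe set per gene (19937 genes). No filter on dim genes was applied. Cox7c and Ndufb4 had only probe sets with several symbols and were not analysed here.

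Group means of all 12 arrays were fitted with limma 3.58.1 in R 4.3.3, two-sided, with Benjamini-Hochberg adjustment over all genes and a threshold of 0.05. The script was tested on simulated data. SD is over the 3 arrays of a group and SE is that of the fit. The members, lists and roles were chosen with earlier results of these data known. Genes were named by rule: core subunits and isoform pairs, the 3 members of each complex furthest from 0 among those past the threshold in a genotype, the largest genotype and interaction values, up to 2 genes per other list, and members whose probe sets disagree. Members named beyond this rule, the other assembly factors and accessory, stalk and F1 subunits among them, were named after their values were seen. Same-numbered arrays of a genotype deviated together (correlations across genes of 0.45, 0.37 and 0.40 in wild-type and 0.49, 0.53 and 0.60 in knockout cells). The number was therefore taken to pair them, which the labels do not state. Arrays of different genotypes correlated from -0.33 to 0.381. Names of genes, positions and promoters are from RefSeq, GRCm38.p6. Alternatives were a replicate block, other normalisations, only the arrays compared, another variance model, a filter on dim genes, the mean of probe sets, and leaving out arrays.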

Additional observations from a re-analysis of the deposited data

How the results depend on the processing

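No named call reversed its direction. The median interaction of the members, -0.02, ran from -0.043 to 0.00603 with 1 array left out. The genotype effects and the interaction gave 0 members under every alternative run. With a replicate block for the pairing, 29 members fell in wild-type cells, 33 fell and 1 rose in knockout cells, and 57 fell and 2 rose in the averaged effect; with a random replicate block 36 fell in wild-type cells, 45 fell and 2 rose in knockout cells, and 59 fell and 2 rose in the averaged effect. With only the arrays compared in the fit, 13 fell and 1 rose in wild-type cells and 14 fell in knockout cells. Without dim genes 1 rose in knockout cells and 2 in the averaged effect, and with an intensity trend and robust prior 0 rose in the averaged effect. Centring each array moved the knockout median to -0.18. Leaving out 1 array gave 8 to 21 lower members in wild-type cells, 8 to 34 lower and 0 to 2 higher in knockout cells, and 0 to 3 higher in the averaged effect. Leaving out a pair of arrays, an alternative chosen after seeing the data, gave 4 to 8, 2 to 15 and, in the averaged effect, 37 to 43 lower and 0 to 1 higher. Differences under about 0.2 are near the limit of 3 arrays per group.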
